A study of Mus musculus with 16 samples.

Results

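The genes described here set the electrical behavior of the skeletal muscle fiber membrane: Scn4a, Clcn1, Kcnj2, Kcnj11, Kcnma1, Cacng1 and Atp1b1, which are 7 of the 21923 genes measured in mouse gastrocnemius. They were taken by gene symbol from a list of sodium, chloride and potassium channel, calcium channel subunit and sodium pump genes. The rule itself used no measured value, but the genes were chosen with earlier results of these data known. All 7 had counts in every library (at least 1254 per library) and were tested in every comparison. The study examined whether amiloride, a potassium-sparing diuretic that also limits the release of exosomes from cells, eases muscle wasting in tumor-bearing mice. Poly(A) RNA from the gastrocnemius of 16 adult mice was sequenced, with 1 library per mouse and 4 mice per group, and the muscle was taken on day 30. NOR mice had a PBS injection on day 0 and no tumor. CAC mice carried a subcutaneous tumor, and both NOR and CAC mice received daily intraperitoneal PBS from day 9. AM mice (titled T in the labels) carried the same tumors and received 2 mg/kg amiloride daily from day 9 in place of PBS. KD mice carried tumors grown from the same cell lines after shRNA knock-down of Rab27 (Rab27a and Rab27b), and otherwise received PBS. In each group mice 1 and 2 are labelled C57BL/6 and mice 3 and 4 BALB/c. The tumor line was LLC (Lewis lung carcinoma) in C57BL/6 mice and CT26 (colon carcinoma) in BALB/c mice, so strain and tumor line cannot be told apart.

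An action potential spreads along a muscle fiber when voltage-gated sodium channels open, and the potential returns to rest through chloride and potassium channels while the sodium pump restores the ion gradients. Scn4a encodes the pore of the muscle sodium channel Nav1.4, Clcn1 the chloride channel ClC-1 that carries most of the resting membrane conductance, Kcnj2 the inward rectifier Kir2.1, Kcnj11 the pore Kir6.2 of the ATP-sensitive (K-ATP) channel, Kcnma1 the pore of the calcium-activated BK channel, Cacng1 the gamma subunit of the voltage sensor Cav1.1, and Atp1b1 the beta1 subunit of the sodium pump. Inherited defects of Scn4a, Clcn1 and Kcnj2 cause myotonia or periodic paralysis.

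Each library held 35913190 to 61032708 counts, and the smallest count of any of the 7 genes in a library, 1254, leaves little counting error. The libraries did not divide by labelled strain. No gene separated the 8 libraries labelled C57BL/6 from the 8 labelled BALB/c by more than 2-fold, while 43 genes separated CAC 4, AM 1, AM 3 and KD 1 from the other 12 libraries. Hddc3 was among these 43, at 21.3 to 34.8 CPM (counts scaled to the same library total) in the 4 libraries and 5.12 to 8.84 CPM in the other 12. Whether the strain labels are right cannot be told from these libraries, so values by strain below divide the mice by label only. None of the 7 genes and none of the related genes named below was among the 43. Summed lymphocyte markers reached at most 3.21 CPM in NOR 1, CAC 1, CAC 4, KD 2 and KD 3 and at least 26.6 CPM in the other libraries. KD 3 held 0 counts of the Y-linked gene Ddx3y, against 2188 to 4130 counts in the other libraries. The protocol in the labels names both sexes for BALB/c mice. Muscle markers were abundant in every library, with a sum of 6 genes between 36409 and 109406 CPM. In bulk muscle RNA, fewer cells of a type and less RNA per cell cannot be told apart.

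Levels between genes were compared as FPKM, which divides by gene length. Cacng1 was the most abundant of the 7, with a mean over the 16 libraries of 343 FPKM, rank 194 of the 12185 genes that reached a mean of 1 FPKM. Kcnj11 followed at 136 FPKM, Atp1b1 at 114, Scn4a at 76.4 and Clcn1 at 54.5. Kcnj2 at 13.2 FPKM and Kcnma1 at 10.2 FPKM were the lowest. The Cacng1 level in its lowest library, 219 FPKM, was above the Kcnj11 level in its highest, 163 FPKM. Kcnj11, Atp1b1, Scn4a and Clcn1 overlapped their neighbors in this order across libraries, as did Kcnj2 and Kcnma1. A gap separated the lowest Clcn1 value, 28.8 FPKM, from the highest Kcnj2 value, 20.8 FPKM.

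Positions are those of GENCODE M21 on GRCm38, which holds 21905 of the 21923 gene identifiers of the table. Scn4a (ENSMUSG00000001027) lies at chr11:106318592-106353288 on the minus strand, Cacng1 (ENSMUSG00000020722) at chr11:107703218-107716522 on the minus strand, and Kcnj2 (ENSMUSG00000041695) at chr11:111066164-111076821 on the plus strand. Clcn1 (ENSMUSG00000029862) lies at chr6:42286685-42315756 on the plus strand and Kcnj11 (ENSMUSG00000096146) at chr7:46093953-46100764 on the minus strand. Kcnma1 (ENSMUSG00000063142) lies at chr14:23289431-24014491 and Atp1b1 (ENSMUSG00000026576) at chr1:164437109-164458355, both on the minus strand. Exons of Clcn1 overlap Fam131b and exons of Atp1b1 overlap Nme7, each on the opposite strand, and an exon of Kcnma1 overlaps 4930519K11Rik, also on the opposite strand and not analysed here. Counting by strand is not given in the sources used here. Of the overlapping genes, the levels were 0.71 to 3.21 CPM for Fam131b and 2.29 to 5.59 CPM for Nme7. At most 0.902% of the 31-base words in the transcripts of any of the 7 genes occur in transcripts of another gene.

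The tumor-bearing CAC muscle was compared with NOR muscle to ask which membrane genes differ in cachexia. Cacng1 rose 2.07-fold and Clcn1 fell 1.87-fold, and both passed the test, which asked for a Benjamini-Hochberg adjusted p of at most 0.05 in edgeR's quasi-likelihood test and a fold change of at least 1.5. The other 5 genes did not pass it, and their log2 fold changes ran from -0.47 for Scn4a to 0.22 for Kcnj2. The 2 called genes of 7 stand beside 9.45% of all 14666 genes tested. For the direction, 1 of 7 rose beside 4.32% of all genes and 1 of 7 fell beside 5.13%. At an unadjusted p under 0.05 the count was also 2 of 7, beside 29.1% of all genes. The plot of CPM by mouse shows all 7 genes.

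**Figure D1:**
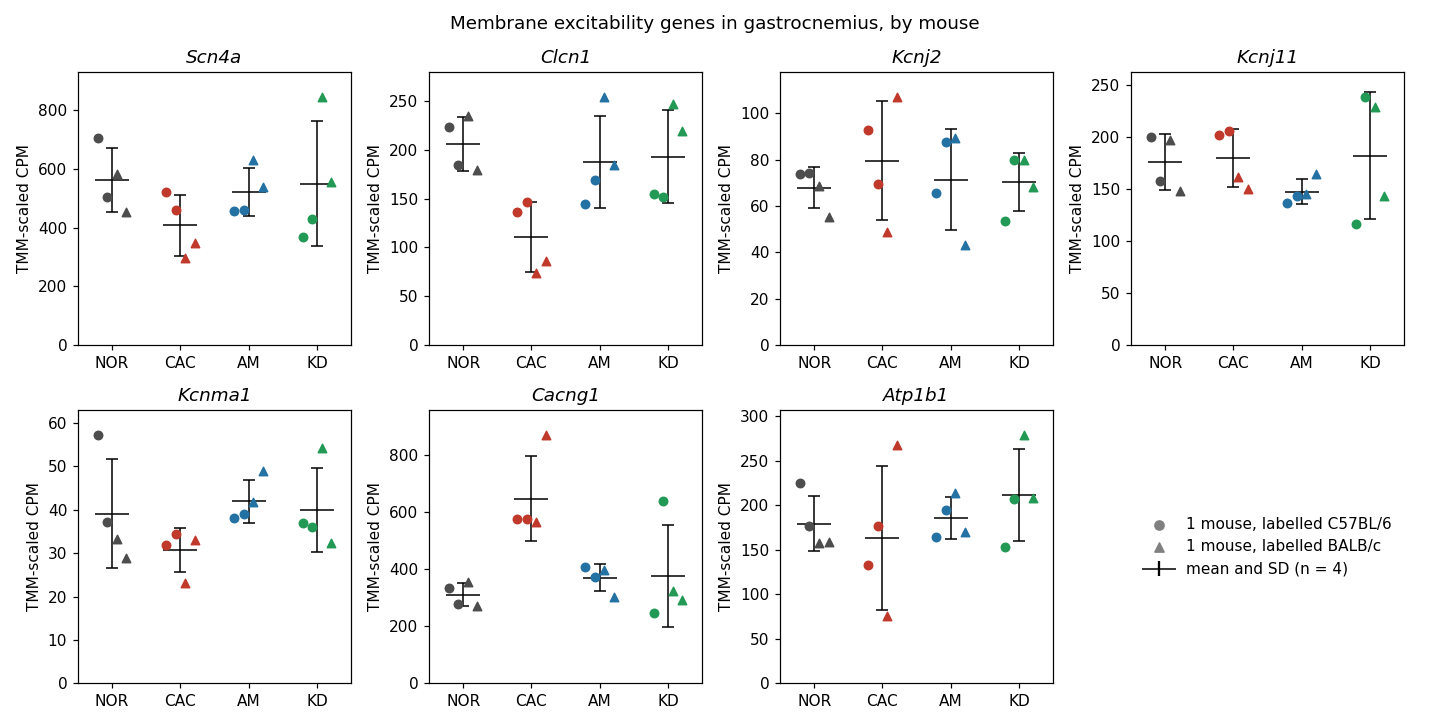
TMM-scaled CPM (y axis, linear from 0) of the 7 genes in each of 16 mice by group (x axis), circles for mice labelled C57BL/6 and triangles for BALB/c, with the group mean and SD (n = 4). The CAC mice lie above the NOR mice for Cacng1 (567 to 871 against 272 to 356 CPM) and below them for Clcn1 (74.0 to 146 against 179 to 235 CPM).

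Cacng1 encodes the gamma1 subunit, which lowers the calcium current through Cav1.1. It stood at 335, 280, 356 and 272 CPM in NOR mice 1 to 4 and at 575, 575, 567 and 871 CPM in CAC mice 1 to 4. Every CAC mouse was above every NOR mouse, and CAC 4 was the highest of all 16. The group means were 311 ± 41.0 CPM in NOR and 647 ± 149 CPM in CAC (SD, n = 4 mice each). This gave a log2 fold change of 1.05 (SE 0.181, adjusted p = 0.00990). Leaving out any 1 of the 8 mice kept the call, with log2 fold changes from 0.88 to 1.12. Without CAC 4, the CAC library among the 4 that stand apart, the log2 fold change was 0.88 (adjusted p = 0.0109). In this comparison 2 of the 7 genes, Cacng1 and Clcn1, had groups that did not overlap, beside 23.3% of all genes.

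Clcn1 was at 223, 185, 235 and 179 CPM in NOR mice 1 to 4 and at 136, 146, 74.0 and 85.9 CPM in CAC mice 1 to 4. The highest CAC mouse was below the lowest NOR mouse, and the lowest values were those of CAC 3 and CAC 4, labelled BALB/c. The means were 205 ± 27.5 CPM in NOR and 111 ± 35.9 CPM in CAC. CAC differed from NOR by a log2 fold change of -0.90 (SE 0.227, adjusted p = 0.0338). Among mice labelled C57BL/6 alone the log2 fold change of Clcn1 was -0.53 and among those labelled BALB/c -1.34, each from 2 mice against 2 and neither past the adjusted p limit, and for Cacng1 these values were 0.91 and 1.22. The adjusted p of Clcn1 rose above 0.05 without CAC 1 (0.0503), CAC 3 (0.0545), CAC 4 (0.0701), NOR 1 (0.0777), NOR 2 (0.0674) or NOR 3 (0.0914), with log2 fold changes between -1.06 and -0.74 over all such fits. The order of the Clcn1 means was NOR, KD, AM and CAC, and the first 3 groups overlapped one another.

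Scn4a had means of 562 ± 109 CPM in NOR and 408 ± 103 CPM in CAC. It stood at 705, 504, 583 and 454 CPM in NOR mice and at 523, 462, 298 and 349 CPM in CAC mice. The groups overlapped, with CAC 1 and CAC 2 inside the NOR range and CAC 3 and CAC 4 below it. Summed over 7 genes, fast fiber markers were also lower in CAC 3 and CAC 4, at 49080 and 64764 CPM, than in CAC 1 and CAC 2, at 105425 and 87055 CPM, beside 85391 to 121597 CPM in NOR. Of the 7 markers 0 were called, beside 9.45% of all genes. The part of these markers in the Clcn1 and Scn4a values was not tested. Scn4a did not pass the test, at a log2 fold change of -0.47 (SE 0.216, adjusted p = 0.188). Over the 16 libraries the log2 CPM of Scn4a and Clcn1 had a Pearson r of 0.87 (Spearman rho 0.83), the closest pair among the 7. This is a description over libraries that share the same groups.

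Because Scn4a and Clcn1 followed each other most closely, the 250 bases before their RefSeq starts (GRCm38.p6) are shown, read 5′ to 3′ on the strand of the gene, at chr6:42286435-42286684 for Clcn1 and chr11:106349391-106349640 for Scn4a. Capitals mark E-boxes (CANNTG on either strand), the motif that muscle regulatory factors such as MyoD bind.
Clcn1: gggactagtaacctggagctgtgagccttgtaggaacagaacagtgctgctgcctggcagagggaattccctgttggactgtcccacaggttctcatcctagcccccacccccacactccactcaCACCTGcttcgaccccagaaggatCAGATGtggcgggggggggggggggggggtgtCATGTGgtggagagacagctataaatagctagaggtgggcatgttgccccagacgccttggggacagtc
Scn4a: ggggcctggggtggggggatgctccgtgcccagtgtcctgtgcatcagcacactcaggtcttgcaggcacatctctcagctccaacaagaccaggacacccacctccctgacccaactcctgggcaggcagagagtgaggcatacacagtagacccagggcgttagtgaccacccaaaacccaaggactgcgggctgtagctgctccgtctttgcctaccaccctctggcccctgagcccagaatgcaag
The Clcn1 window held 3 E-boxes, starting 125, 101 and 69 bases before the start, and the Scn4a window held none. Among all 32851 RefSeq promoter windows of this length, 66.2% held at least 1 E-box. The Clcn1 window also held the TATA core TATAAA, 50 bases before the start, as did 12.4% of all windows on either strand. Neither window held the forkhead core TGTTTAC, present in 3.17% of windows, or the STAT core TTCNNNGAA, present in 7.02%. The RefSeq start of Clcn1 is also the GENCODE gene start. That of Scn4a lies 3898 bases inside the GENCODE gene and 1 base from the nearest GENCODE transcript start of Scn4a. These matches describe the letters of the windows only. Entries for 5 of the 7 genes were found, among which Kcnj2 held 2 E-boxes and Kcnma1 and Atp1b1 none.

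The 3 potassium channel genes did not pass the test in CAC. Kcnj2 stood at 73.6, 74.4, 68.4 and 55.3 CPM in NOR mice and at 92.7, 69.3, 48.9 and 107 CPM in CAC mice, so that CAC spread on both sides of NOR (log2 fold change 0.22, SE 0.226, adjusted p = 0.587). Kcnj11 had almost equal means, 176 ± 26.8 CPM in NOR and 180 ± 28.1 CPM in CAC, with a log2 fold change of 0.02 (SE 0.156, adjusted p = 0.944) whose sign changed with upper-quartile scaling (-0.02). Kcnma1 averaged 39.1 ± 12.6 CPM in NOR and 30.7 ± 5.11 CPM in CAC (log2 fold change -0.36, SE 0.234, adjusted p = 0.346). NOR 1 held the highest Kcnma1 value of the 16 mice, 57.3 CPM, and CAC 3 the lowest, 23.2 CPM. Since the BK channel is also abundant in smooth muscle, the smooth muscle markers are given beside it. Their sum over 5 genes was 591 to 775 CPM in NOR and 460 to 698 CPM in CAC. Of the 5, 1 was called lower and 0 higher, beside 5.13% and 4.32% of all genes. CAC 3 held the lowest value of both Kcnma1 and this sum over the 16 mice. The part of these markers in the Kcnma1 values was not tested.

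Atp1b1 spread widely within CAC. It stood at 132, 177, 75.8 and 268 CPM in CAC mice 1 to 4, against 224, 177, 157 and 159 CPM in NOR mice. CAC 3 was the lowest of all 16 mice and CAC 4 the second highest after KD 3. The log2 fold change was -0.15 (SE 0.336, adjusted p = 0.823), and the SD of 81.0 CPM in CAC against 31.2 CPM in NOR shows the spread behind it.

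AM muscle was compared with CAC muscle to ask which of these genes differ when tumor-bearing mice receive amiloride. Cacng1 fell 1.74-fold and passed the test, and it was the only 1 of the 7 genes to do so, beside 3.66% of all 14674 genes tested, with 1.63% that rose and 2.03% that fell. At an unadjusted p under 0.05 there were 3 of 7 (Cacng1, Clcn1 and Kcnma1) beside 21.7%. Clcn1 and Kcnma1 had positive log2 fold changes of 0.77 and 0.46 that did not pass. The AM and CAC groups did not overlap for Cacng1 and Kcnma1, 2 of 7 genes, beside 15.3% of all genes. This comparison shares the CAC libraries with the comparison of CAC with NOR, so the values of the 2 comparisons are given side by side and their opposite signs were not tested.

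In AM mice 1 to 4, Cacng1 stood at 408, 373, 399 and 303 CPM, and all 4 were below the lowest CAC mouse at 567 CPM. The AM mean was 371 ± 47.6 CPM. AM was lower than CAC by a log2 fold change of -0.80 (SE 0.173, adjusted p = 0.0382). Leaving out any 1 of the 8 mice took the adjusted p of Cacng1 past 0.05, to between 0.0513 (without CAC 4) and 0.102 (without AM 4), with log2 fold changes from -0.86 to -0.63. Without the 4 libraries that stand apart it was -0.78 (adjusted p = 0.134). AM 1, AM 2 and AM 3 were above the highest NOR mouse at 356 CPM.

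Clcn1 stood at 145, 169, 254 and 184 CPM in AM mice 1 to 4, with a mean of 188 ± 47.1 CPM. AM 1 was just below the highest CAC mouse, at 145 against 146 CPM, and the other AM mice were above all CAC mice. The log2 fold change from CAC was 0.77 (SE 0.251, adjusted p = 0.120), and without the 4 libraries that stand apart it was 0.56 (adjusted p = 0.413). The values by strain rest on the labels, which the libraries did not follow. The log2 fold change from CAC to AM was 0.16 among mice labelled C57BL/6 and 1.43 among mice labelled BALB/c. The difference of these 2 values, 1.27 on the log2 scale (SE 0.245), did not pass edgeR's interaction test (adjusted p = 0.269). In DESeq2 the interaction passed for 2 of the 7 genes, Clcn1 (1.28, adjusted p = 0.00245) and Scn4a (0.93, adjusted p = 0.00486), beside 3.21% of all genes. DESeq2 also called Clcn1 higher in AM than in CAC (0.78, adjusted p = 0.0299), so that with Cacng1 it called 2 of the 7 here, beside 7.83% of all genes, and 2 of the 7 in CAC against NOR, beside 13.2%.

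Kcnma1 was at 38.1, 39.0, 41.7 and 48.9 CPM in AM mice, each above the highest CAC mouse at 34.5 CPM. Its log2 fold change of 0.46 (SE 0.137) did not pass the test (adjusted p = 0.0957). The smooth muscle marker sum was 584 to 812 CPM in AM, and its part was not tested. Scn4a had a log2 fold change of 0.36 (SE 0.191, adjusted p = 0.325) and an AM mean of 522 ± 82.3 CPM. Kcnj11 had its lowest group mean in AM, 148 ± 11.8 CPM, with AM mice between 137 and 164 CPM (log2 fold change from CAC -0.28, SE 0.127, adjusted p = 0.242). Kcnj2 (-0.15, adjusted p = 0.811) and Atp1b1 (0.19, adjusted p = 0.785) had log2 fold changes smaller than their SE.

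**Figure D2:**
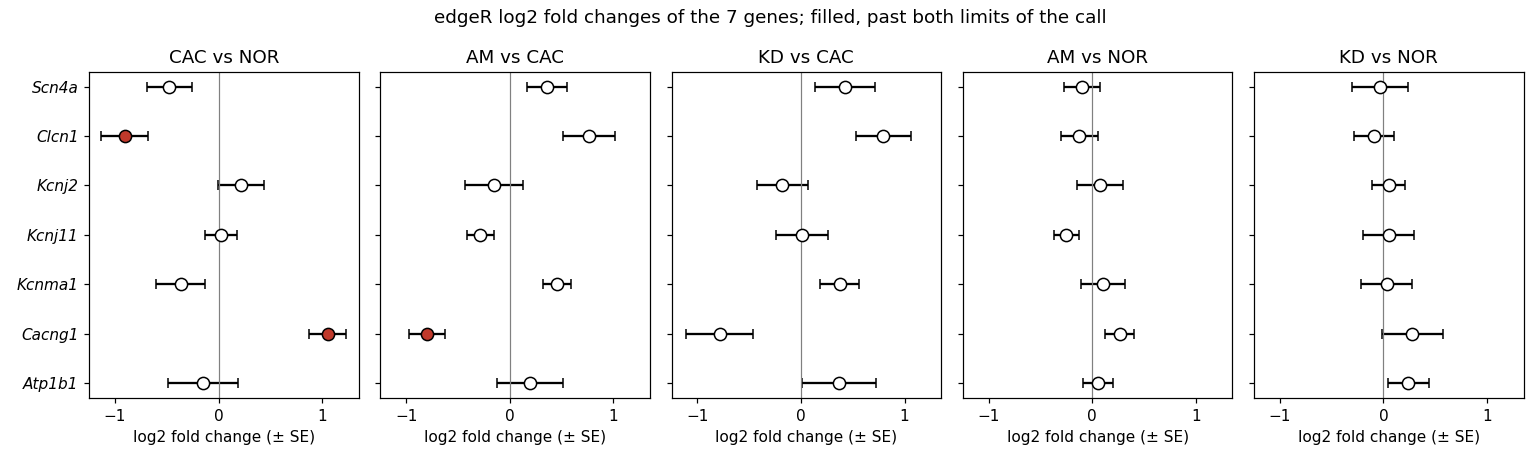
edgeR log2 fold changes (x axis, bars ± SE) of the 7 genes (y axis) in 5 comparisons, filled where the adjusted p and fold limits were both passed. The filled points are Cacng1 at 1.05 and Clcn1 at -0.90 in CAC vs NOR and Cacng1 at -0.80 in AM vs CAC.

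KD muscle was compared with CAC muscle to ask whether tumors with less Rab27 leave a different muscle profile. None of the 7 genes passed the test, beside 0.00685% of all 14593 genes, which is 1 gene. At an unadjusted p under 0.05 in edgeR, 2 of the 7 genes, Cacng1 and Clcn1, were counted beside 11.1% of all genes, and none of the 7 was called by DESeq2, beside 2.33% of all genes, or by limma-voom, beside 0.00%. Cacng1 stood at 247, 639, 324 and 293 CPM in KD mice 1 to 4. KD 2 was inside the CAC range, KD 3 and KD 4 were inside the NOR range, and KD 1 was below it. The log2 fold change from CAC was -0.79 (SE 0.323, adjusted p = 0.420). Clcn1 stood at 154, 151, 247 and 219 CPM, each above the highest CAC mouse, and its log2 fold change was 0.80 (SE 0.265, adjusted p = 0.342). Clcn1 was the 1 gene of 7 whose KD and CAC groups did not overlap, beside 7.29% of all genes.

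Scn4a and Kcnj11 had larger SDs in KD, 213 and 61.1 CPM, than in the other groups, where they were at most 109 and 28.1 CPM. Scn4a ran from 369 CPM in KD 1 to 847 CPM in KD 3, the highest of the 16 mice, and Kcnj11 from 117 CPM in KD 1 to 239 CPM in KD 2, its lowest and highest values over the 16 mice. KD 3 also held the highest Atp1b1 value, 279 CPM. The log2 fold changes from CAC were 0.42 for Scn4a (SE 0.291), 0.37 for Atp1b1 (SE 0.357), 0.38 for Kcnma1 (SE 0.189), -0.18 for Kcnj2 (SE 0.246) and 0.01 for Kcnj11 (SE 0.249), with adjusted p from 0.509 to 0.997. Without KD 3 the value for Scn4a was 0.15 and that for Atp1b1 was 0.22. As in AM, the difference of Clcn1 from CAC was larger among mice labelled BALB/c (1.52) than among those labelled C57BL/6 (0.14), and the difference of 1.38 (SE 0.250) did not pass edgeR's interaction test (adjusted p = 0.804) but passed in DESeq2 (adjusted p = 4.04e-05), for 1 of the 7 genes beside 0.743% of all genes. The AM and KD values by strain are both taken from the same CAC mice, so they are not independent of each other.

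Neither AM nor KD muscle had a member that passed the test against NOR, and none passed between AM and KD. In these 3 comparisons no gene at all passed in edgeR (0.00% of all genes in each), and none of the 7 had an unadjusted p under 0.05 or groups that did not overlap. The shares of all genes with such a p were 9.19% for AM against NOR, 3.54% for KD against NOR and 1.11% for AM against KD, and the shares without overlap were 5.11%, 2.26% and 0.956%. DESeq2 called 0.476%, 0.211% and 0.00681% of genes in the same order, again with none of the 7. The furthest members from NOR were Cacng1, with log2 fold changes of 0.26 in AM (SE 0.142) and 0.28 in KD (SE 0.295), and Kcnj11 in AM at -0.25 (SE 0.125). Between AM and KD the log2 fold changes ran from -0.30 for Kcnj11 (SE 0.233) to 0.08 for Kcnma1 (SE 0.173).

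Channels work with accessory subunits, so 55 related genes in 8 groups were examined beside the 7. These lists were written with earlier results of these data known, so their counts beside all genes are descriptive. Of these, 54 were tested (Kcnmb2, a BK subunit with at most 0.313 CPM in any library, was not). In CAC against NOR, 3 rose and 10 fell, beside 4.32% and 5.13% of all genes, and the median log2 fold change was -0.22 beside 0.01 over all genes. In AM against CAC, none rose and 3 fell, beside 1.63% and 2.03% of all genes. In KD against CAC none passed in edgeR, with 12 of 54 at an unadjusted p under 0.05 beside 11.1% of all genes. DESeq2 called 6 higher and 11 lower in CAC against NOR, beside 5.75% and 7.41% of the genes to which it gave an adjusted p. It called 7 higher and 5 lower in AM against CAC, beside 4.48% and 3.35%, and 3 higher and 0 lower in KD against CAC, beside 1.61% and 0.715%. The plot of the related genes gives both comparisons.

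**Figure D3:**
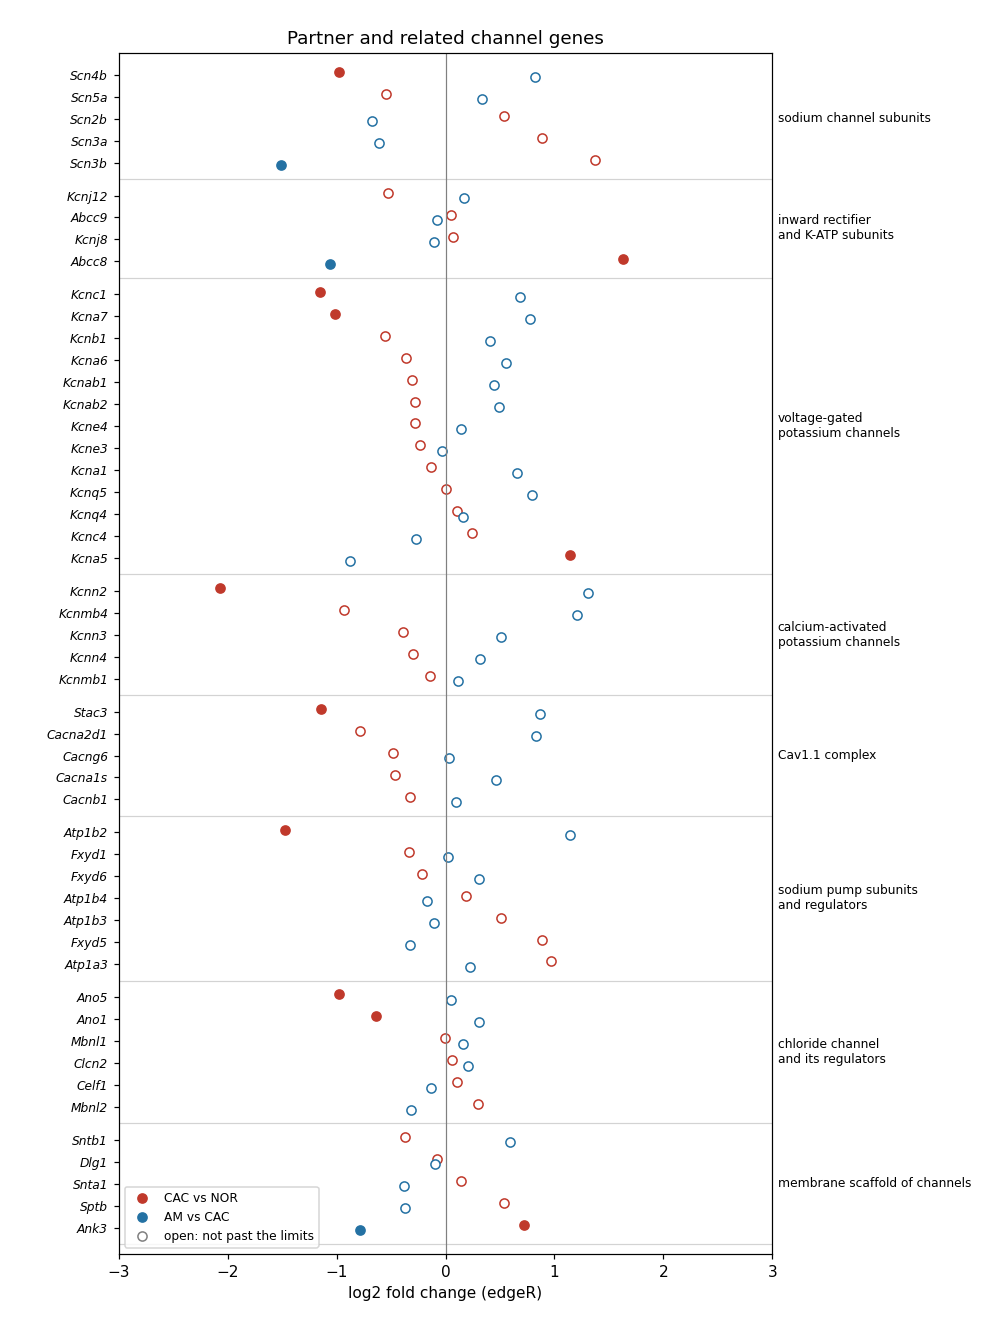
edgeR log2 fold changes (x axis) of 50 of the related genes (y axis, grouped), red for CAC vs NOR and blue for AM vs CAC, filled where the call was made. Abcc8 and Ank3 are filled in both, at 1.63 and 0.73 in CAC vs NOR and at -1.06 and -0.78 in AM vs CAC.

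Of 6 other sodium channel subunit genes, 2 fell in CAC. Scn4b, the beta4 subunit, fell from 508 ± 84.2 CPM in NOR to 261 ± 80.3 CPM in CAC (log2 fold change -0.98, adjusted p = 0.0334). The remaining 4 genes of this group did not pass in CAC, and Scn3b, a low-level beta3 subunit, fell from 4.64 ± 1.89 CPM in CAC to 1.62 ± 0.251 CPM in AM (-1.51, adjusted p = 0.0421).

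Among the sodium pump genes, Atp1b2, the beta2 subunit, fell from 349 ± 64.0 CPM in NOR to 127 ± 51.2 CPM in CAC (log2 fold change -1.47, adjusted p = 0.0191), whereas Atp1b1 did not pass. The within-mouse ratio of Atp1b1 to Atp1b2 in FPKM was 0.617, 0.654, 0.532 and 0.671 in NOR and 0.908, 1.34, 1.51 and 2.76 in CAC. Its means were 0.840 ± 0.221 in AM and 0.835 ± 0.148 in KD. Atp1b3, the beta3 subunit, had an adjusted p of 0.0157 but a log2 fold change of 0.51, under the fold limit.

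Cacng1 and its partners in the Cav1.1 complex had log2 fold changes of opposite sign in CAC. All 5 other Cav1.1 complex genes tested had negative log2 fold changes in CAC, from -1.14 to -0.33, with no change of sign under 3 other scalings, and 1 of them passed. Stac3, which couples Cav1.1 to calcium release, fell from 268 ± 43.0 to 123 ± 39.9 CPM (-1.14, adjusted p = 0.0206). The pore gene Cacna1s had a log2 fold change of -0.47 (adjusted p = 0.282). The within-mouse FPKM ratio of Cacng1 to Cacna1s was 1.31, 1.52, 1.99 and 1.54 in NOR mice and 3.03, 3.20, 6.63 and 6.85 in CAC mice. It was 1.43 to 2.35 in AM, below every CAC mouse, and 0.953 to 3.56 in KD, where KD 2 was inside the CAC range. The skeletal muscle marker sum, which covers 6 genes, was 75671 to 109406 CPM in NOR and 36409 to 76824 CPM in CAC. Of its 6 genes, 1 was called higher and 0 lower in CAC against NOR, beside 4.32% and 5.13% of all genes. In AM against CAC, 0 were called higher and 1 lower, beside 1.63% and 2.03%. The part of this sum in these values was not tested.

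**Figure D4:**
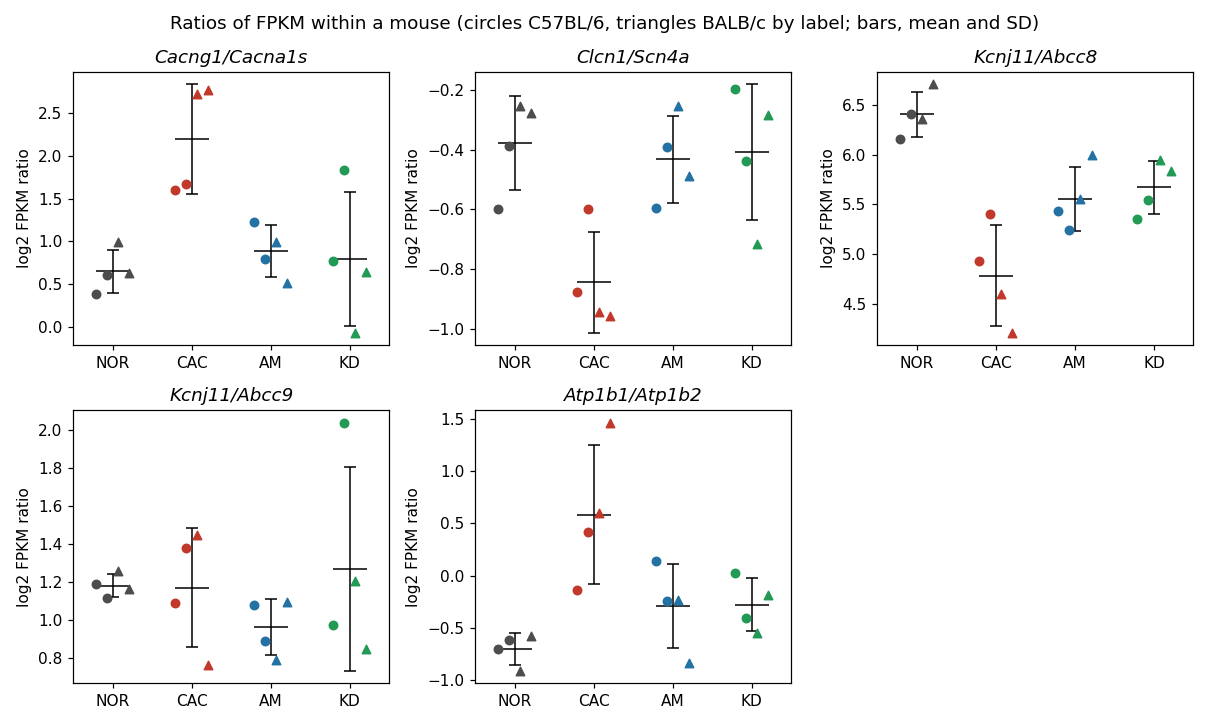
log2 ratios of FPKM within each mouse (y axis) by group (x axis) for 5 gene pairs, circles for mice labelled C57BL/6 and triangles for BALB/c, with mean and SD (n = 4). The ratio of Cacng1 to Cacna1s separates CAC (linear ratios of 3.03 to 6.85) from NOR (1.31 to 1.99), and that of Kcnj11 to Abcc9 does not (1.70 to 2.72 against 2.16 to 2.39).

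In the K-ATP group, Abcc8, which encodes the sulfonylurea receptor SUR1, rose from 3.14 ± 0.899 CPM in NOR to 9.75 ± 1.98 CPM in CAC (log2 fold change 1.63, adjusted p = 0.00804). It fell to 4.68 ± 0.736 CPM in AM (-1.06 from CAC, adjusted p = 0.0216), and it averaged 5.27 ± 1.71 CPM in KD (-0.89, adjusted p = 0.302). Abcc9, which encodes SUR2, the main partner of Kir6.2 in muscle, was at 359 ± 45.4 CPM in NOR and 373 ± 72.2 CPM in CAC and did not pass (0.05, adjusted p = 0.895, with the opposite sign under upper-quartile scaling). The FPKM ratio of Kcnj11 to Abcc8 was 71.6 to 105 in NOR and 18.5 to 42.2 in CAC, while that of Kcnj11 to Abcc9 was 2.27 ± 0.0949 in NOR and 2.29 ± 0.470 in CAC.

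Among 14 voltage-gated potassium channel genes, 3 fell and 1 rose in CAC. Kcna7, which encodes Kv1.7, fell from 115 ± 17.3 to 57.2 ± 17.1 CPM (log2 fold change -1.02, adjusted p = 0.0194) and Kcnc1, which encodes the fast Kv3.1 channel, from 101 ± 18.9 to 46.0 ± 14.7 CPM (-1.15, adjusted p = 0.0157). Kcna5, which encodes the delayed rectifier Kv1.5, rose from 26.3 ± 7.66 to 58.3 ± 15.2 CPM (1.15, adjusted p = 0.0169). None of the 14 passed in AM against CAC, where Kcna5 had a log2 fold change of -0.87 (adjusted p = 0.105).

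Kcnn2, which encodes the small-conductance channel SK2, had the most negative log2 fold change of the related genes in CAC, from 4.49 ± 0.411 to 1.08 ± 0.655 CPM (-2.08, adjusted p = 0.0133). It was the 1 call among 5 tested calcium-activated potassium channel genes, a group in which Kcnma1, the member of the main list, did not pass. Among 6 genes of the chloride channel and its regulators, 2 fell. Ano1, a calcium-activated chloride channel, fell from 18.9 ± 1.60 to 12.2 ± 2.70 CPM (-0.64, adjusted p = 0.0395), and Ano5, a membrane repair protein, from 140 ± 39.1 to 72.0 ± 21.4 CPM (-0.97, adjusted p = 0.0476). Mbnl1, Mbnl2 and Celf1, which control Clcn1 splicing, did not pass, and gene counts do not show splice forms. Of 5 membrane scaffold genes 1 rose in CAC. Ank3, which encodes the ankyrin G that holds sodium channels in place, went from 98.2 CPM in NOR (87.7 to 111) to 163 CPM in CAC (144 to 181) (0.73, adjusted p = 0.00847) and fell to 94.7 CPM in AM (78.1 to 102) (-0.78, adjusted p = 0.00956).

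Several calls on related genes ended when 1 mouse was left out. In CAC against NOR the adjusted p rose above 0.05 without NOR 3 for Atp1b2 (0.0536), Stac3 (0.0602), Kcna5 (0.0568) and Kcna7 (0.0505), without NOR 2 for Stac3 (0.0517) and Kcna5 (0.0543), and without CAC 1 for Kcna7 (0.0539). For Scn4b it rose to between 0.0577 and 0.0891 without CAC 2, CAC 4, NOR 1, NOR 2 or NOR 3. Ano5 lost its call without CAC 1, CAC 3, CAC 4, NOR 1, NOR 2 or NOR 3 (adjusted p from 0.0906 to 0.118). Ano1 lost its call without CAC 1, CAC 2 or any 1 NOR mouse (adjusted p from 0.0535 to 0.105) and, by the fold limit alone, without CAC 3 (log2 fold change -0.49). In AM against CAC, Abcc8 lost its call without AM 1, AM 3, AM 4, CAC 1 or CAC 3 (0.0530 to 0.0650) and Scn3b without any 1 mouse other than CAC 3 (0.0697 to 0.110). The calls of Abcc8, Kcnc1, Kcnn2 and Ank3 in CAC against NOR and of Ank3 in AM against CAC held in all 8 such fits. None of the calls on related genes passed among mice of either labelled strain alone. With all 16 libraries in 1 fit the adjusted p of Ank3 was 0.0589 in CAC against NOR and 0.0831 in AM against CAC, and without the 4 libraries that stand apart it was 0.128 in AM against CAC.

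Markers of other cell types also differed in CAC. Of all genes tested, 4.32% were called higher and 5.13% lower in CAC against NOR, and 1.63% and 2.03% in AM against CAC. Summed erythrocyte markers were 1002 to 1374 CPM in NOR and 3646 to 8714 CPM in CAC, and all 5 rose. Summed fibroblast markers were 2280 to 2853 CPM in NOR and 801 to 1331 CPM in CAC, with 2 of 5 called lower. The denervation list, which covers 7 genes, summed to 61.3 to 84.9 CPM in NOR and 85.2 to 160 CPM in CAC, with 2 of 6 tested genes called higher. In AM, where Cacng1 was lower than in CAC, summed fibroblast markers were 1837 to 2541 CPM, above every CAC mouse, with 2 of 5 called higher. The denervation sum was 62.2 to 90.3 CPM and the erythrocyte sum 967 to 16085 CPM in AM, with none called. In KD the fibroblast sum ran from 704 to 3077 CPM with none called. The part of these markers in the values of the channel and pump genes was not tested.

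The members did not move as 1 block across mice. Beside the pair of Scn4a and Clcn1, Scn4a and Kcnma1 had a Pearson r of 0.75 (Spearman rho 0.56) and Clcn1 and Cacng1 had an r of -0.67 (rho -0.56) over the 16 libraries. By the same measure, over 13203 genes with a mean of at least 1 CPM, the genes nearest to Clcn1 were Camk2a (r = 0.97), Lrrfip1 (0.97) and Trim55 (0.96), and those nearest to Scn4a were Narf (0.94), Pdzrn3 (0.94) and Cand2 (0.94). Nearest to Cacng1 were Rabac1 (0.97), P4hb (0.96) and Gga1 (0.96). Kcnj11 lay nearest to Stim2 (0.93), Borcs5 (0.91) and Nudt4 (0.91), and Atp1b1 to Got2 (0.93), Emc10 (0.91) and Adamtsl5 (0.91). Kcnma1 lay nearest to Ogdh (0.88), Fzd9 (0.87) and Maea (0.87), and Kcnj2 to Card10 (0.84), Ctdsp2 (0.83) and Jag1 (0.82). The libraries behind each r share groups and depth, so the values are descriptive.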

How the data were processed

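RNA of gastrocnemius from 16 mice (4 each in NOR, CAC, AM and KD) was enriched for poly(A), converted to libraries and sequenced on an Illumina HiSeq2500 by the authors. The submitters' processing notes name fastp, Bowtie2, HISAT2 and StringTie 1.3.1 and the builds mm9 and GRCm38, without roles. The deposited table holds whole-number counts per gene, not normalized, and the authors' FPKM. Dividing counts by FPKM and the library total gave, for 4460 genes, a length that differed across libraries by no more than 0.387%, so both columns rest on the same reads. Each count and FPKM column was mapped to a mouse by its name. Totals were 35913190 to 61032708 counts. Chi-square per degree of freedom between libraries of a group was at least 66.6, so no library was a copy of another in its group. Pairs across groups were not checked in this way. The labels give separate mice and say nothing of litters, so p-values measure the spread between these mice.

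The test used edgeR 4.0.16 under R 4.3.3 (filterByExpr with a minimum count of 10 and total of 15, TMM scaling, glmQLFit and the quasi-likelihood test on the 8 libraries compared). A call needed a Benjamini-Hochberg adjusted p of at most 0.05 over all genes tested and a fold change of at least 1.5, the limits of the study, whose NOISeq test was not used here. CPM were TMM-scaled, and FPKM served for levels between genes. Groups were called separate where their CPM did not overlap. The members, related lists and markers were chosen with earlier results of these data known. The text names all 7 members, the related genes called in CAC vs NOR or AM vs CAC (some others are named after their values were seen) and, for each member, the 3 genes with the highest Pearson r of log2 CPM (prior count 2). Alternatives were other scalings, filters, DESeq2 1.42.0, limma-voom and limma 3.58.1 on log2(FPKM + 0.1), strain or replicate terms, each mouse left out and other fold limits. The code was tested on simulated data. Promoter sequences came from RefSeq (GRCm38.p6) and positions from GENCODE M21. Intervals on counts would cover counting error only and are not given.

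The replicate numbers were checked for pairing. The deviations of same-numbered mice from their group means had correlations from -0.66 to 0.63 over 24 pairs, and 7 were over 0.1, so the numbers were not taken to pair mice.

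Some related genes are counted in their lists but not reported here by name or drawn.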

Additional observations from a re-analysis of the deposited data

Results flagged for a closer look

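The Cacng1 value of CAC 4, 871 CPM, lay far from those of the other 3 CAC mice, which were between 567 and 575 CPM. Of the 28 sets of 4 mice examined (7 genes in 4 groups) it was the 1 in which the gap to the nearest mouse exceeded Dixon's critical share of the range, at 0.972. Chance marks about 1 in 20 such sets. The rule was applied to TMM-scaled CPM only. In FPKM, CAC mice 1 to 4 stood at 438, 455, 562 and 737, so CAC 3 was less close to CAC 1 and CAC 2. CAC 4 is also the CAC library among the 4 that stand apart, and without it Cacng1 still passed the test against NOR, with a log2 fold change of 0.88 (adjusted p = 0.0109 in edgeR). No effect differed between the labelled strains in edgeR's interaction test among the 21 tests of the 7 genes.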

How the results depend on the processing

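In CAC vs NOR, Cacng1 kept its call in 23 of 25 alternatives and Clcn1 in 14 of 25. Of the 7 genes, the 1 called higher became 0 with mice labelled C57BL/6 alone or BALB/c alone. The 1 called lower became 0 with either strain alone, a fold limit of 2 or without the 4 libraries that stand apart, and ranged from 0 to 1 when 1 mouse was left out. In AM vs CAC, Cacng1 kept its call in 7 of 25. The 1 called lower became 0 with total-count scaling (adjusted p of Cacng1 0.0522), no filter (0.0504), labelled strain as covariate (0.0679), all 16 libraries in 1 fit (0.107), either strain alone, a fold limit of 2, without the 4 libraries that stand apart (0.134), and with lymphocyte markers as covariate (0.0854), and it was 0 in each fit that left out 1 mouse. With DESeq2 the count called higher was 1 in place of 0, and a strain by condition interaction passed for 2 genes (AM against CAC) and for 1 (KD against CAC), in place of 0. Leaving out the 4 libraries and the lymphocyte covariate were chosen after seeing the data. Among related genes, the fit of all 16 libraries also ended the calls of Scn4b (adjusted p 0.0505) and Kcna5 (0.0813) in CAC vs NOR and of Abcc8 (0.0559) and Scn3b (0.0825) in AM vs CAC. Leaving out the 4 libraries ended those of Scn4b (0.0577), Ano5 (0.0942), Abcc8 (0.211, AM vs CAC) and Scn3b (0.240). Total-count scaling (log2 fold change -0.52) and log2 FPKM (-0.53) took Ano1 under the fold limit, no filter ended Ano5 (0.0528), and limma-voom (0.0893) and the lymphocyte covariate (0.0854) ended Scn3b. The causes were not tested.

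The replicate numbers are not taken to pair mice. With the replicate number as a block the count called lower was 0 in CAC vs NOR (Clcn1 adjusted p 0.0509) and 0 in AM vs CAC (Cacng1 adjusted p 0.223), and the log2 fold change of Kcnj11 in KD vs CAC was -0.0359. Among related genes the block ended the calls of Scn4b (adjusted p 0.0596), Ano1 (0.0793) and Ano5 (0.0771) in CAC vs NOR and of Ank3 (0.132), Abcc8 (0.179) and Scn3b (0.149) in AM vs CAC.

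Changes of sign among the log2 fold changes were seen in genes not called in that comparison. In CAC vs NOR, Kcnj11 was -0.0228 with upper-quartile scaling, -0.12 in BALB/c alone and -0.0025 with the lymphocyte covariate, and -0.0590 to 0.12 without 1 mouse. Atp1b1 was 0.13 in BALB/c alone and -0.49 to 0.10 without 1 mouse, and Kcnj2 was -0.0098 with the lymphocyte covariate. In AM vs CAC, Scn4a was -0.0854 in C57BL/6 alone, Kcnj2 was 0.20 with the lymphocyte covariate and -0.32 to 0.0253 without 1 mouse, and Atp1b1 was -0.0400 to 0.53 without 1 mouse. In KD vs CAC, Kcnj11 was -0.14 with total-count scaling, -0.0387 with limma-voom, -0.16 with limma on log2 FPKM, -0.17 in C57BL/6 alone, -0.0697 with the lymphocyte covariate and -0.16 to 0.17 without 1 mouse, Scn4a was -0.28 in C57BL/6 alone, and Kcnj2 was 0.12 without the 4 libraries.

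Total-count scaling moved the median log2 fold change of all genes to 0.14 in CAC vs NOR and -0.11 in KD vs CAC. The share of calls that were higher in CAC vs NOR was 45.7% with TMM, 60.8% with total-count and 36.3% with upper-quartile scaling, and in AM vs CAC 44.5%, 38.8% and 54.6%. With 4 mice a group, the spread between mice limits these comparisons more than depth does.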
